A study of Mus musculus with 2 samples.

Results

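The cell cycle inhibitor p21 is encoded by Cdkn1a, which was examined with 8 related genes in the hippocampus of mice fed astaxanthin. The set held the cyclin-dependent kinase (CDK) inhibitor genes Cdkn1a, Cdkn1b, Cdkn1c, Cdkn2c and Cdkn2d, the p53 gene Trp53, and the p53-linked genes Mdm2, Ccng1 and Gadd45a. Probes on both arrays were assigned to the 9 genes by RefSeq accession. The genes had 13 probes, all 13 were well above background for both RNAs, and each gene is represented by its brightest probe. The 9 genes stand among 13318 genes with a symbol, and 23603 genes and transcripts in all, that were measured in the same way. The set was chosen by name with the ASX/control log2 ratios of these same arrays in view, so its values are a description and none is a test.

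Male C57BL/6J mice, 11 weeks old and weighing 26 to 28 g, were housed singly and acclimatized for 1 week. The astaxanthin (ASX) group then ate powdered chow with 0.5% (w/w) of a Haematococcus pluvialis powder for 4 weeks, and 2% of that powder was astaxanthin. The control group ate the chow with 0% of it and with a placebo powder. Total hippocampal RNA of the diets was hybridised together on 2 two-colour Agilent arrays, with ASX in Cy5 and control in Cy3 on array 1 and the dyes exchanged on array 2. Each array title gives 4 mice, and the series' own design lists 4 control and 4 treated replicates, but the labels do not state how their RNA was combined or whether both arrays carry the same RNA. The arrays were described as a dye swap and were treated here as 1 replicate, which is an assumption. No test of the diet was therefore made, and an SD between arrays describes the spread of these 2 arrays.

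CDK inhibitors hold cells out of division. The CIP/KIP proteins p21, p27 and p57 bind many cyclin and CDK complexes, while the INK4 proteins bind CDK4 and CDK6. p53 is a transcription factor that is stabilised by DNA damage and other stress. It switches on Cdkn1a, and also Mdm2, whose product marks p53 for degradation. In the adult hippocampus these inhibitors act in the neural progenitors of the dentate gyrus, which leave the cell cycle before they become neurons. The study set out from neurogenesis in adult mice, as its title gives it. The comparison here asks how the RNA levels of these genes stood in ASX against control hippocampus. Which cells that RNA came from, and cell division itself, were not measured.

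p53 binds DNA at pairs of a short half-site, and the sequence before the starts of the genes was searched for it. The RefSeq promoter table (GRCm38.p6) held 10 start sites for 8 of the 9 genes, all but Cdkn1c, and the 250 bases before each start were read. The windows of Cdkn1a and of the 3 other p53 target genes of the set are shown so that the letters before their starts can be compared. Capitals mark each match to the p53 half-site consensus, which has 10 letters. The Cdkn1a window lies before its upstream start, at chr17:29090729-29090978 on the plus strand. Those of Mdm2 (chr10:117710759-117711008), Ccng1 (chr11:40755287-40755536) and Gadd45a (chr6:67037408-67037657) lie on the minus strand, and all are written 5′ to 3′ towards the gene.
Cdkn1a, upstream start: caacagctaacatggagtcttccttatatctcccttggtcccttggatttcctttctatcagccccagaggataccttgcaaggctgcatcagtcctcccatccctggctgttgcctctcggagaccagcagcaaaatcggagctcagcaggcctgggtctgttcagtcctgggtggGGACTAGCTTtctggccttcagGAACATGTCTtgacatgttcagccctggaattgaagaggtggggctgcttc
Mdm2: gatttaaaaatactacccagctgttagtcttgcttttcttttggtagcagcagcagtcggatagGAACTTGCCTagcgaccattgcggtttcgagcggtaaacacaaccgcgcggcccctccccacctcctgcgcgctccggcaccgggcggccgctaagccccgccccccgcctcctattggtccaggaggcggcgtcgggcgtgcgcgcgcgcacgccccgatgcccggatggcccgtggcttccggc
Ccng1: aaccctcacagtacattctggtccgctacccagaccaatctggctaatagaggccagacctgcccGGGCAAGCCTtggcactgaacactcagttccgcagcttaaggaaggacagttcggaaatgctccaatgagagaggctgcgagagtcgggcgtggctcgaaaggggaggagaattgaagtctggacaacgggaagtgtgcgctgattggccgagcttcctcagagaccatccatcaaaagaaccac
Gadd45a: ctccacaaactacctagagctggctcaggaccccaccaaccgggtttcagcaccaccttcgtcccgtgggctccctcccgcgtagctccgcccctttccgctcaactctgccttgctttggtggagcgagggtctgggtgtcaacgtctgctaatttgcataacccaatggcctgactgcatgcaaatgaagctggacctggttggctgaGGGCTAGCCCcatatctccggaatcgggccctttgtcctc
The Cdkn1a window held 2 half-sites with 12 bases between them, the first from 73 to 64 and the second from 51 to 42 bases before the start. It was the 1 window of the 10 with a pair of exact half-site matches 0 to 13 bases apart. Such a pair was found in 21 of 32851 windows of this length in the table (0.0639%). The 10 letters directly after the second Cdkn1a half-site match the consensus except at the opening t, and were not marked. Sites with a mismatch, or outside these 250 bases, were not counted for any gene. At least 1 half-site stood in 6 of the 10 windows and in 7.13% of all windows. Mdm2 (186 to 177 bases before the start), Ccng1 (185 to 176), Gadd45a (40 to 31), Trp53 (75 to 66) and Cdkn2d (102 to 93) had 1 each in their windows.

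Cdkn1a has a second start 2790 bases downstream, and its window (chr17:29093519-29093768, plus strand) is shown because it holds different motifs. Capitals mark GGGCGG, the GC box bound by Sp1 family factors.
Cdkn1a, downstream start: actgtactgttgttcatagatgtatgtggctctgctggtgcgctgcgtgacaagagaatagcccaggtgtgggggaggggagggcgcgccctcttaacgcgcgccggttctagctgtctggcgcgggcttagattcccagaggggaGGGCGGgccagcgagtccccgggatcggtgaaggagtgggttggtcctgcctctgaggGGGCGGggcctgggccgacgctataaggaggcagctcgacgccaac
This window held 2 GC boxes and no p53 half-site, and its GC content was 64.8%, against 54.0% in the upstream window. GGGCGG stood in 6 of the 10 windows and in 32.7% of all windows, and CCAAT in 6 of the 10 and in 33.8% of all. Both strands were searched, and 1 GC box of the Cdkn2d window overlaps its half-site. A match is a description of letters, and binding was not measured here.

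Cdkn1a was lower in the ASX RNA on both arrays. Its normalized intensity was 514 in ASX and 755 in control RNA on array 1, and 439 in ASX and 669 in control RNA on array 2. Both ASX values lay below both control values, whichever dye the ASX RNA carried. The log2 ratio of ASX over control was -0.55 on array 1 and -0.61 on array 2, with a mean of -0.58 and an SD between arrays of 0.039. By this processing the ASX level was 0.669 of the control level. The mean log2 ratio ran from -0.96 to -0.56 over the 12 processings that used both arrays.

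**Figure D1:**
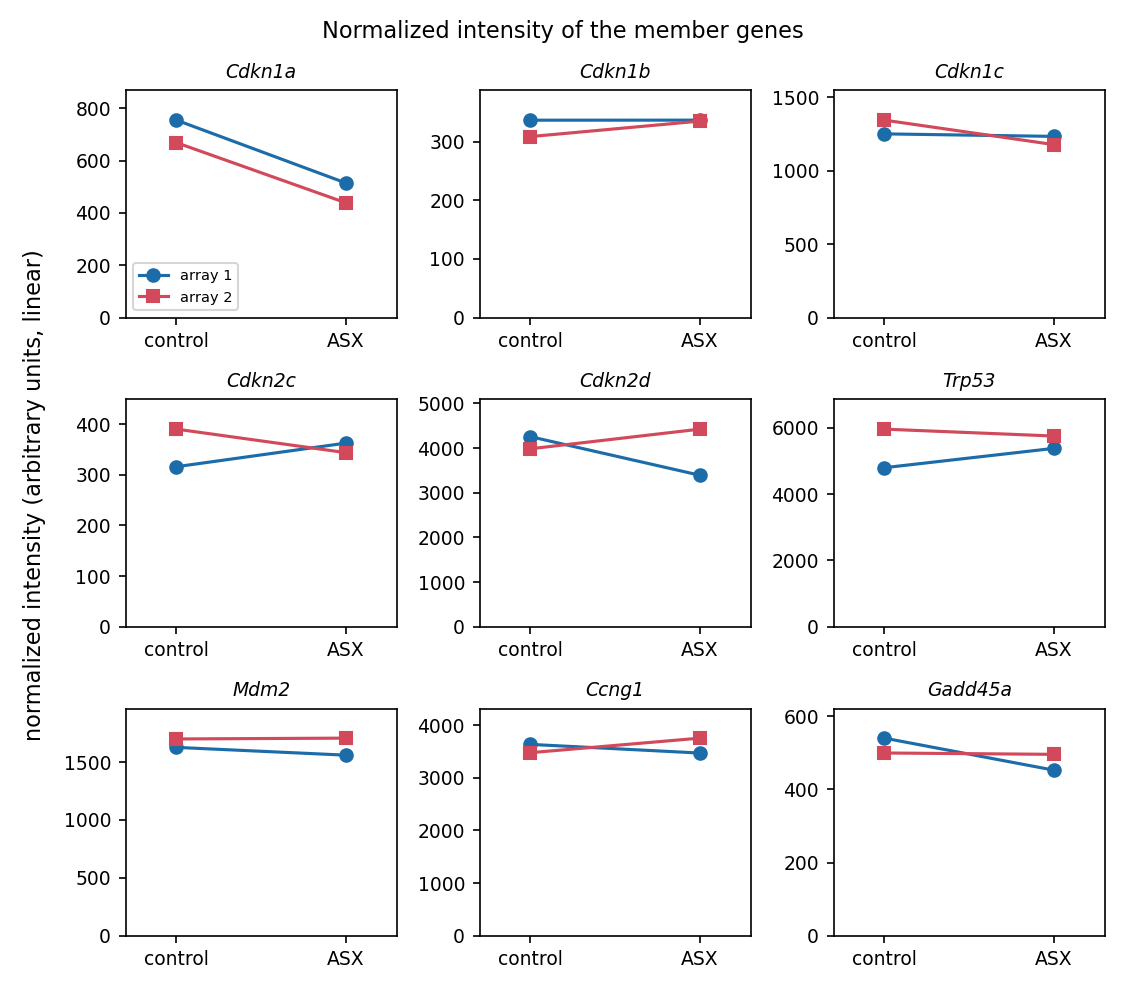
Normalized intensity (arbitrary units, linear axis from 0) of each gene's brightest probe in control and ASX RNA, with 1 line per array. Both lines fall from control to ASX for Cdkn1a, from 755 to 514 and from 669 to 439. The lines of Cdkn2c, Cdkn2d, Trp53, Mdm2 and Ccng1 slope in opposite directions on the 2 arrays, those of Mdm2 only slightly.

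The Cdkn1a probe was printed at 10 spots per array, which shows how well each ratio was read. On array 1 the log2 ratios of the spots ran from -0.68 to -0.49 with a median of -0.54 and an SD of 0.056. On array 2 they ran from -0.66 to -0.57 with a median of -0.59 and an SD of 0.031. All 10 spots were below 0 on each array. The ASX intensities of the spots, 438 to 564 on array 1, lay below the control intensities, 615 to 809, and on array 2 the ranges of 357 to 480 and 539 to 719 did not overlap either. The scanner software's own error for the log2 ratio of a spot, 0.21 on array 1 and 0.22 on array 2, was wider than this scatter. Of 200 measured probes with 10 spots, 1 had a lower mean ratio, that of the immediate early gene Egr2 at -0.78.

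Cdkn1a had the 8th lowest mean ratio of the 13318 genes with a symbol, and ranked 27th lowest on array 1 alone and 26th lowest on array 2 alone. It was at least 1.2-fold lower on each array, as 0.33% of these genes and 0.314% of all genes and transcripts were. None of the 9 genes was 1.2-fold higher on each array, as 0.233% and 1.44% were. At a limit of 1.5-fold, which is 0.585 on the log2 scale, Cdkn1a passed on array 2 and missed on array 1. Hence 0 of the 9 genes passed 1.5-fold on each array, beside 0.03% of genes with a symbol in each direction (0.0601% in either). Over all genes and transcripts 0.0212% passed lower and 0.0636% higher (0.0847% in either). The SD between arrays of Cdkn1a was below the median of 0.11 over genes with a symbol. Its ratio averages 10 spots per array, while only 245 of 41174 probes were printed at 10 spots, so these SDs are not alike.

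The other CIP/KIP genes did not share this difference. Cdkn1b encodes p27, which keeps many cell types out of the cycle, and gave 337 in both RNAs on array 1, and 335 in ASX and 309 in control RNA on array 2. Its log2 ratios were 0.00043 and 0.12, with 5 of 10 spots above 0 on array 1 and 10 of 10 on array 2. A dimmer Cdkn1b probe read 0.093 and 0.16. Array 1 thus showed equal levels at the 10-spot probe, and no probe of Cdkn1b read below 0 on average. Cdkn1c, an imprinted gene that encodes p57, gave 1234 in ASX and 1251 in control RNA on array 1, and 1178 and 1345 on array 2. Its ratios were -0.020 and -0.19. Both ASX values lay below both control values, but the ratio on array 1 was smaller than the median SD of 0.050 over repeated spots there.

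**Figure D2:**
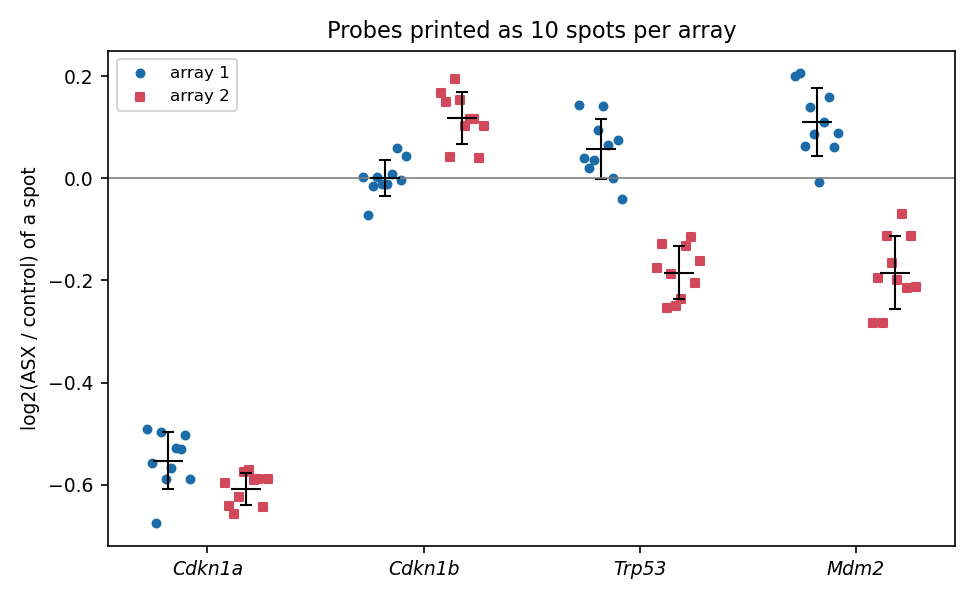
log2(ASX / control) of every spot of the 4 probes of these genes that were printed at 10 spots per array, with the mean and SD of the spots in black. The Cdkn1a spots lie between -0.68 and -0.49, apart from those of Cdkn1b, Trp53 and Mdm2, and most Trp53 and Mdm2 spots change sign between the arrays.

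Neither INK4 gene of the set kept a direction when the dyes were exchanged. Cdkn2c, which encodes p18INK4c, gave 363 in ASX and 316 in control RNA on array 1, and 344 and 390.5 on array 2. Its log2 ratios of 0.20 and -0.18 oppose each other, with the Cy5 RNA brighter each time, and average 0.0078 with an SD of 0.27. Cdkn2d, which encodes p19INK4d, gave 3390.4 and 4254 on array 1, and 4423 and 3983 on array 2. Its ratios of -0.33 and 0.15 average -0.088 with an SD of 0.34, and here the Cy3 RNA was brighter each time. For both genes the arrays differ more from each other than the mean differs from 0. Of the related genes outside the set, Cdkn2b, which encodes p15INK4b, read -0.29 and -0.13, and Cdkn2a was not well above background.

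Trp53 itself had no shared direction. Its brightest probe gave 5379 in ASX and 4796 in control RNA on array 1, and 5750.3 and 5959 on array 2, log2 ratios of 0.17 and -0.051. A dimmer Trp53 probe with 10 spots read 0.058 and -0.18. Its spots ran from -0.040 to 0.14 on array 1, with 9 of 10 above 0, and from -0.25 to -0.11 on array 2, with all 10 below 0. Both Trp53 probes read higher in the Cy5 RNA on each array, and their means, 0.057 and -0.064, differ in sign.

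Mdm2, the target gene whose product restrains p53, stayed near equal levels. Its brightest probe gave 1560.5 in ASX and 1628 in control RNA on array 1, and 1708 and 1701 on array 2, log2 ratios of -0.061 and 0.0061. A dimmer Mdm2 probe with 10 spots read 0.11 and -0.18, with 9 of 10 spots above 0 on array 1 and all 10 below 0 on array 2. The means of the 2 probes were -0.027 and -0.037, close to each other although the dimmer one moved with the dyes.

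Ccng1 encodes cyclin G1 and is a direct p53 target. It gave 3471 in ASX and 3636 in control RNA on array 1, and 3755 and 3478 on array 2, log2 ratios of -0.067 and 0.11. A dimmer Ccng1 probe read 0.15 and 0.17. Neither probe had a mean below 0 (0.022 and 0.16), but the brighter one changed sign between the arrays. Gadd45a, a stress gene induced by p53 and by other factors, gave 453 and 540.4 on array 1, and 496 and 499.7 on array 2. Its ratios were -0.26 and -0.011, a mean of -0.13 with an SD of 0.17. Its lower mean came from array 1, since array 2 read nearly equal levels.

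**Figure D3:**
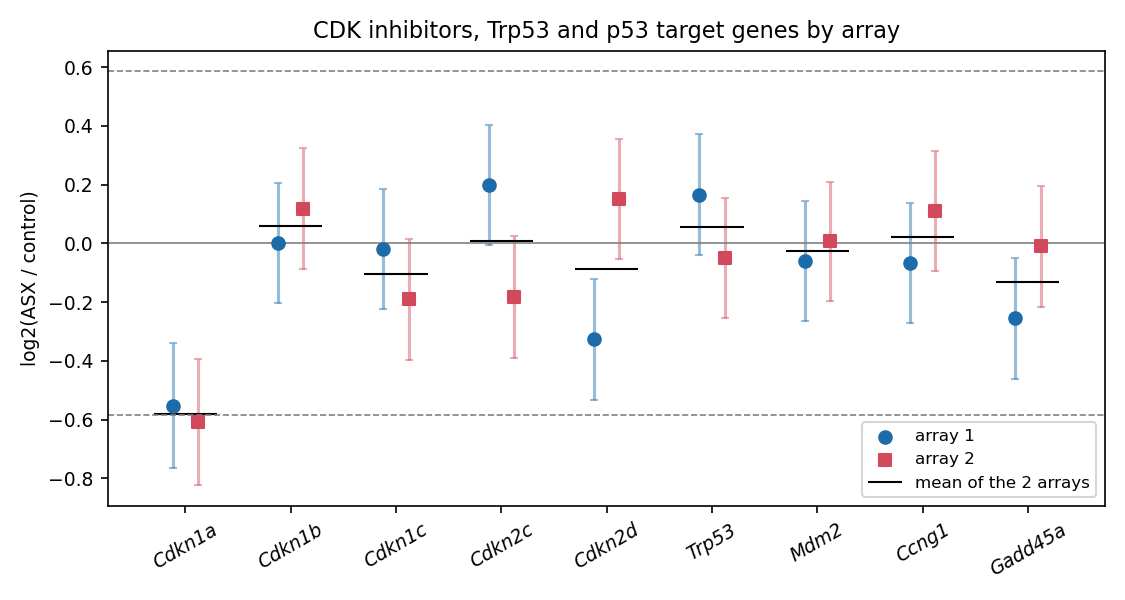
log2(ASX / control) of each gene's brightest probe on array 1 (circles) and array 2 (squares), with the scanner software's error for a spot's ratio as bars, the mean of the arrays as a black line and 1.5-fold as dashed lines. The mean of Cdkn1a is -0.58, and the means of the other 8 genes lie between -0.13 and 0.059.

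Of the 9 genes, 3 were below 0 on both arrays (Cdkn1a, Cdkn1c and Gadd45a), beside 26.4% of genes with a symbol and 23.0% of all genes and transcripts. Cdkn1b alone was above 0 on both, beside 14.3% and 22.2%, and 5 of the 9 had opposite signs, beside 59.3% and 54.8%. The median of the 9 means was -0.027, and that of the 8 genes other than Cdkn1a was -0.0098, beside -0.019 over genes with a symbol.

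**Figure D4:**
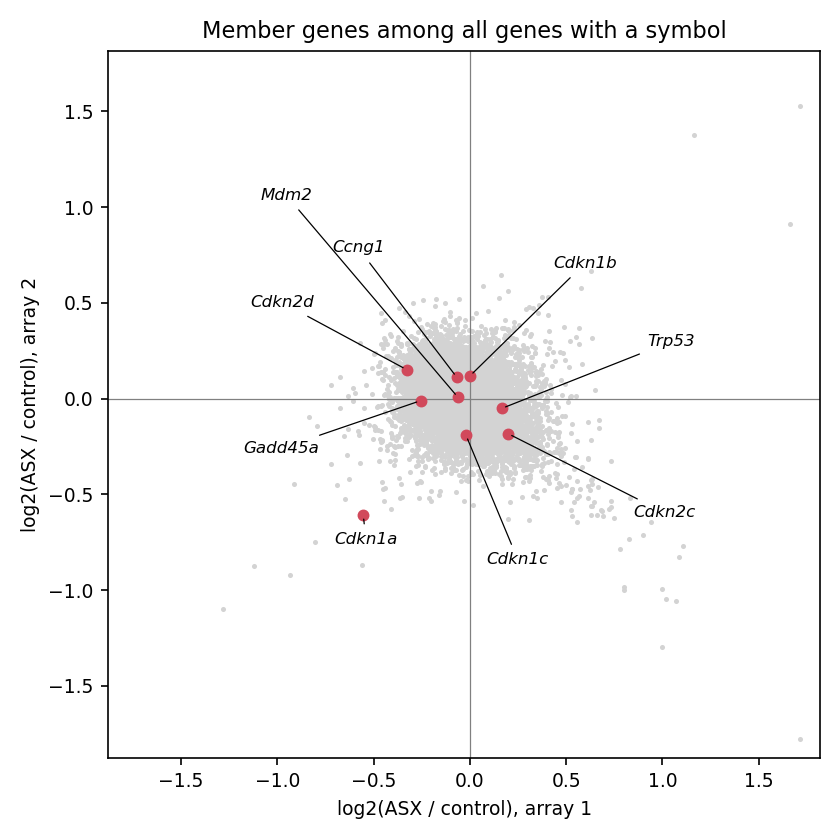
log2(ASX / control) on array 1 (x axis) against array 2 (y axis) for the 13318 genes with a symbol (grey) and the 9 genes of the set (red, named). Cdkn1a lies at -0.55 and -0.61, at the lower left edge, and the other 8 genes lie within the dense part of the cloud.

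Further p53 target genes had about the same median as genes with a symbol. Of 30 listed genes for apoptosis, DNA repair, cell cycle arrest and antioxidant defence, 28 were measured. None of the 28 was 1.2-fold apart in the diet direction on each array. Only 0.33% of genes with a symbol were lower and 0.233% higher at this limit, so finding none says little for a list this short. Both arrays put 9 of the 28 (32.1%) below 0 and 3 (10.7%) above 0, beside 26.4% and 14.3% of genes with a symbol. The 28 had a median of -0.019 over the means of the arrays, beside -0.019 for the 13318 genes. On single arrays the median of the 28 changed sign (-0.065 on array 1 and 0.0092 on array 2). Pmaip1, which encodes the pro-apoptotic protein NOXA, read -0.15 and -0.32. Phlda3, which encodes an inhibitor of Akt, read -0.29 and -0.065. Psrc1 read -0.29 and -0.053 at its brightest probe, while 2 dimmer probes had means of -0.085 and -0.11. On the other side, Bbc3, which encodes the pro-apoptotic protein PUMA, read 0.095 and 0.19. Bax, an effector of mitochondrial apoptosis, read -0.19 and 0.046. Bbc3 and Bax were picked for their roles after their values were seen.

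Regulators and relatives of p53 gave 12 measured genes of 15 listed. Beside 26.4% and 14.3% of genes with a symbol, 2 of the 12 were below 0 on both arrays and 2 above (16.7% each). Their median was 0.023 over the means, and -0.0040 and -0.014 on arrays 1 and 2, so its sign depends on how the arrays are combined. Mdm4, whose product binds p53 and blocks its activity, read 0.064 and 0.16 at its brightest probe. Its other probes read 0.16 and 0.29, and 0.24 and 0.28, so all 3 probes of Mdm4 were above 0 on both arrays. Crebbp, which encodes an acetyltransferase that acts with p53, read 0.12 and 0.014. Trp63, which encodes a p53 relative, read -0.11 and -0.17, while a second Trp63 probe that did not pass the brightness filter read 0.15 and 0.055. Gadd45b, a relative of Gadd45a, read -0.090 and -0.067, with another probe at -0.19 and -0.11, and was the 1 of 3 further cyclin G and Gadd45 genes with the same sign on both arrays.

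The cell cycle genes on which the inhibitors act showed small differences. Of 20 listed CDK, cyclin, retinoblastoma family and related genes, 16 were measured. Beside 26.4% and 14.3% of genes with a symbol, 5 of the 16 (31.2%) were below 0 on both arrays and 1 (6.25%) above. None was 1.2-fold apart on each array, beside 0.33% lower and 0.233% higher, which says little for a list this short. The median of the 16 was -0.036, which was -0.032 on array 1 and -0.13 on array 2. Ccnd1, which encodes the CDK4 and CDK6 partner cyclin D1, read -0.14 and -0.13 and was picked for that role after its values were seen. Ccnd3, another D-type cyclin gene, read -0.11 and -0.23. The cyclin genes Ccnb1 and Ccna2, which are used late in the cycle, read -0.066 and -0.30, and -0.0081 and -0.27. For both of them the lower mean came mostly from array 2. Cdk1, Cdk2 and Cdk6 were not well above background, so these partners have no ratio.

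Glucocorticoids can also induce Cdkn1a. Of 12 listed glucocorticoid response genes, 11 were measured. Beside 26.4% and 14.3% of genes with a symbol, 2 of the 11 (18.2%) were below 0 on both arrays and 3 (27.3%) above. Their median was 0.076, which was -0.023 on array 1 and 0.065 on array 2, and their lowest mean was that of Pdk4, an inhibitor of pyruvate oxidation, at -0.17 (-0.13 and -0.21). Ddit4, which encodes an inhibitor of mTORC1, read 0.26 and 0.018. Fkbp5, which encodes a co-chaperone of the glucocorticoid receptor, read 0.041 and 0.24, and its dimmer probes had means of 0.025 and 0.019. Cdkn1a, the 8th lowest of 13318 genes with a symbol and chosen with its ratio in view, lay below every measured gene of this list. Whether glucocorticoids had a part in its value was not tested.

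Immediate early genes, which neurons switch on with activity, were low in the same RNA as Cdkn1a. Beside 26.4% and 14.3% of genes with a symbol, 12 of the 13 measured (92.3%) were below 0 on both arrays and none above. The median of the 13 was -0.23. Their summed intensity was 66269 in ASX and 77954 in control RNA on array 1, and 67781 and 78207 on array 2. Markers of neighbouring tissue differed as well. Of 9 striatal markers, 8 were below 0 on both arrays, and their sum was 23921 in ASX and 29141 in control RNA on array 1, and 22434 and 29971 on array 2. All 4 measured ependymal genes were below 0 on both arrays (sums of 3293 and 4106, then 3732 and 4181), as were 4 of 7 thalamic and habenular genes (6657 and 7711, then 6929 and 7216). In the other direction, 7 of 9 meningeal genes were above 0 on both arrays (32033 and 32010.0, then 32747 and 29293), and so were 4 of 5 measured pituitary genes (2615 and 1811, then 2683 and 2044), with Tshb not well above background. Of 5 measured blood genes, 3 were below 0 and 2, the neutrophil genes S100a8 and S100a9, above (8651 and 12835, then 9197 and 11504). The hippocampal markers were present, with 8 of 10 on the array, all 8 measured, 2 above 0 on both arrays and none below (81111 and 85516, then 88953 and 81939). Of 7 measured choroid plexus genes, 5 (71.4%) read below 0 on each array and 2 (28.6%) above it (23547 and 23951, then 25753 and 25582). Of 6 microglial genes, 3 read below 0 on both arrays and none above (16052 and 16362, then 14707 and 15900). Vessel genes stood at 1 below and 3 above of 8, oligodendrocyte genes at 1 below and 0 above of 8. Of 7 astrocyte genes, 1 was above 0 on both arrays and 0 below. The medians of these 5 lists over the means of the arrays lay between -0.069 and -0.035. On single arrays the vessel median was above 0 each time (0.040 and 0.076). The oligodendrocyte (0.041 and -0.13) and astrocyte medians (0.081 and -0.052) changed sign. Those of choroid plexus and microglial genes were below 0 on each array. The part of these differences in the Cdkn1a value was not tested. In RNA of whole tissue, fewer cells of a type and less RNA per cell cannot be told apart.

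The genes whose pair of array ratios lay nearest to that of Cdkn1a, by straight-line distance over the 2 arrays, were Slc10a4, Foxp2, Penk, Hba-a1 and Noxred1. Slc10a4, a gene of the bile acid transporter family, read -0.65 and -0.52, at a distance of 0.13. Foxp2, a forkhead transcription factor gene, read -0.45 and -0.53, also at 0.13. Penk, the enkephalin precursor gene, which is 1 of the striatal markers, read -0.41 and -0.58, at 0.15. The haemoglobin gene Hba-a1 read -0.45 and -0.47, at 0.17, and Noxred1 read -0.44 and -0.47, at 0.18. Over 2 arrays, this likeness is one of size and sign alone.

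**Figure D5:**
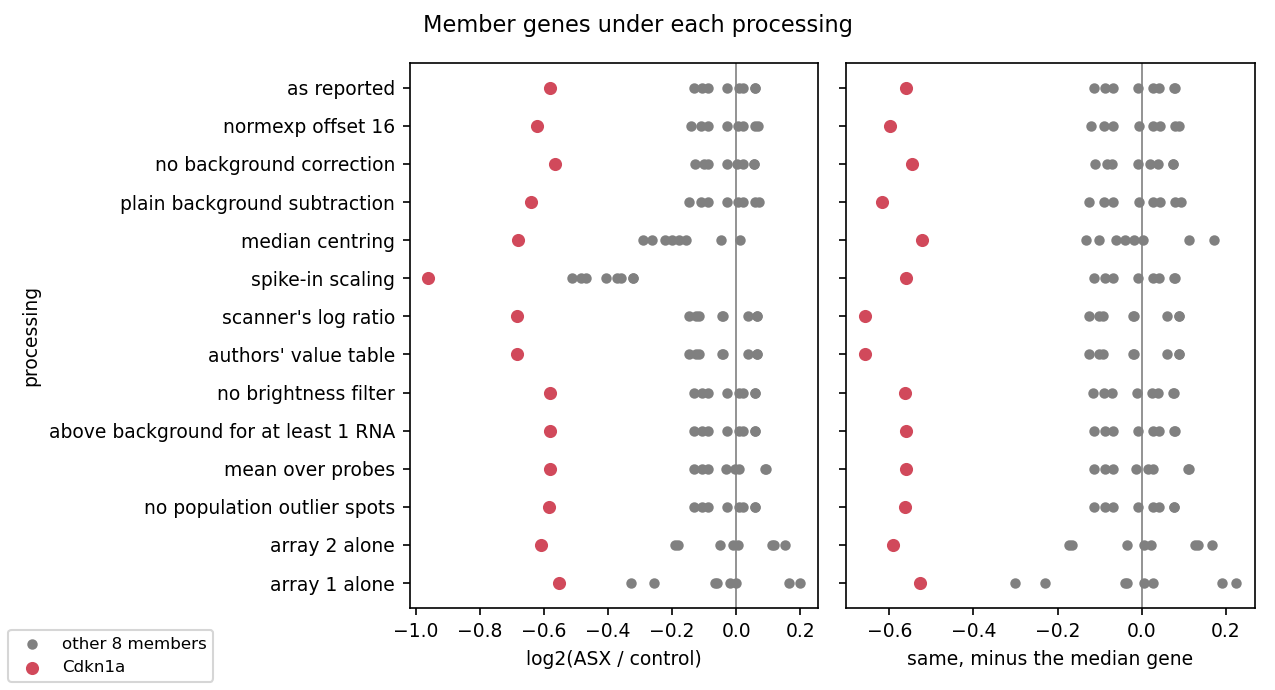
Mean log2(ASX / control) of Cdkn1a (red) and the other 8 genes (grey) under each processing of the arrays, as computed (left) and after subtracting the median of genes with a symbol under the same processing (right). Cdkn1a is the lowest of the 9 genes in every line, and on the right it lies between -0.66 and -0.52 where both arrays were used.

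The size of the Cdkn1a ratio depended on how the arrays were scaled, while its sign was the same under every processing tried. Relative to the median of genes with a symbol, Cdkn1a stood between -0.66 and -0.52 over the 12 processings that used both arrays, and it ranked between the 7th and the 14th lowest. Not all 12 could move this value. Spike-in scaling subtracts the same amount from every gene. Cdkn1a has 1 probe, so the brightness filters and the mean over probes left its own ratio as it was. The value table repeats the scanner software's log ratio. It passed 1.5-fold on each array under median centring and with the scanner software's own log ratio, each with a mean of -0.68. Median centring moved the median of genes with a symbol to -0.16, and spike-in scaling moved it to -0.40. Relative to that median, Cdkn1c, Cdkn2d, Gadd45a and Mdm2 lay below it and Cdkn1b and Trp53 above it in all 12, while Ccng1 lay below it in 1 and Cdkn2c in 2. All 12 average the same 2 arrays, and single arrays placed most of these genes otherwise. On array 2 alone Cdkn2d (0.17), Mdm2 (0.023) and Gadd45a (0.0063) lay above the median and Trp53 (-0.034) below it. On array 1 alone Cdkn1c (0.0066) lay above it. Cdkn1b stayed above it on each array (0.027 and 0.14).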

How the data were processed

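Array scans were quantified in Agilent Feature Extraction 11.0.1.1, per the submitters' processing notes. Per the file headers, each deposited intensity is a spot's median pixel value in 1 channel, with a local background beside it, and is not normalized. The deposited log10 ratio is the scanner software's Cy5 over Cy3 value after its own background and dye correction, per the file headers. Here limma 3.58.1 (R 4.3.3) corrected the median intensities by normexp with an offset of 50 and fitted loess within each array, giving control spots weight 0. Of 43379 spots for mouse transcripts, 3 outlier spots were left out. All log2 values were turned to ASX over control, and repeated spots were averaged per probe. Intensities of each RNA follow Aquantile scaling and are not compared between probes. RefSeq names (GRCm38.p6) matched 23374 of 41174 probes, each to 1 symbol. A gene took its brightest probe among those for which the scanner software marked ASX and control RNA as well above background on each array, a mark that 77.8% (ASX) and 78.2% (control) of spots reached on array 1 and 76.7% and 75.8% on array 2. The calculation was tested on simulated data. Besides the 9 genes, the text names the 5 genes nearest to Cdkn1a and, per pathway list, up to 3 genes with the largest mean among those with 1 sign on both arrays. The members and lists were chosen with earlier results of these data known.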

Additional observations from a re-analysis of the deposited data

How the results depend on the processing

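With both arrays treated as 1 replicate, no processing gives a test of the diet, and the number of arrays limits the precision. The Cdkn1a mean of -0.58 became -0.62 with a normexp offset of 16, -0.64 with plain background subtraction, -0.68 with median centring, -0.68 with the scanner software's log ratio and -0.68 with the authors' deposited value table, and -0.96 with spike-in scaling. With 1 array left out it lay between -0.61 and -0.55. The count of genes at least 1.5-fold lower on each array rose from 0 to 1, Cdkn1a, under some processings. The share of genes with a symbol past 1.5-fold, 0.03% as reported, rose under them as well. These were plain subtraction (0.0676%), median centring (0.0601%), the scanner software's log ratio and the value table (0.0826% each), and spike-in scaling (0.736%). With array 1 left out the count was 1 (0.21% of genes), and with array 2 left out it was 0 (0.158%). The count at least 1.2-fold lower was 1, but 5 with spike-in scaling, which put 67.0% of genes with a symbol past this limit, and 1 to 2 with 1 array left out (3.99% and 5.32% of genes, beside 0.33% with both arrays). The count below 0 on both arrays was 3, but 6 with median centring (61.4% of genes with a symbol), 9 with spike-in scaling (98.3%) and 5 to 6 on a single array (55.1% and 57.0%), beside 26.4% with both arrays. The median of the other p53 target genes was -0.019, but -0.17 with median centring and -0.40 with spike-in scaling, and lay between -0.065 and 0.0092 with 1 array left out. Both scalings moved the median of genes with a symbol. Spike-in scaling moved every gene by the same amount. Median centring did not, and took Cdkn1b from 0.059 to 0.012 but Trp53 from 0.057 to -0.16. The cause of these moves was not tested. No background correction, no brightness filter, a filter on 1 RNA, the mean over probes and leaving out population outlier spots kept these results within the spread. Spike-in scaling and leaving out the outlier spots, which included 2 of the 10 Cdkn1a spots on each array, were chosen after seeing the data. The planned scaling by spike-in mix ratio was not run, because the mix ratios are not named in the files used here. Each ratio pairs the ASX and control RNA of 1 array, but no paired test was possible because the arrays were treated as 1 replicate.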
